A study of Oryctolagus cuniculus with 8 samples.

Results

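The comparison described here set 4 retinas of rabbits fed sucrose (2 on a high-sucrose diet, HSD, and 2 on HFSD, a diet high in both fat and sucrose) against 4 retinas of rabbits fed no added sucrose (2 on a normal diet, ND, and 2 on a high-fat diet, HFD), which are all 8 retinas of the series. ND was standard chow. HFD was chow with 10% lard and 0.5% cholesterol, HSD was chow with 40% sucrose, and HFSD was chow with 35% sucrose together with the lard and cholesterol of HFD. Added fat was therefore present in 2 retinas on either side of the comparison, while the sucrose content differed between HSD and HFSD. All animals were wild-type male Chinchilla rabbits aged 12 to 16 weeks at the start and kept on their diet for 6 months. RNA came from dissected retina, so fewer cells of a type and less RNA per cell cannot be told apart in any value given here. The labels do not say that the 2 retinas of a diet came from separate animals, and the p-values measure only the spread between these retinas, which may in part be technical. Of 25666 genes in the deposited table, 19293 were protein-coding, and the 12204 of these that reached 1 FPKM (fragments scaled to gene length and library depth) in at least 2 retinas were compared. A gene was called when its adjusted p was under 0.05. Unless another fit is named, every adjusted p given here comes from limma on log2(FPKM+1) with the Benjamini-Hochberg method over these genes.

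Sucrose is cleaved in the gut into glucose and fructose. Glucose reaches the retina across the endothelium of retinal vessels and across the retinal pigment epithelium, in both cases through the transporter SLC2A1, and fuels the glycolysis on which photoreceptors depend. Müller glia span the neural retina, take up glutamate and convert it to glutamine through glutamine synthetase (GLUL). The retina is also patterned from dorsal to ventral: dorsal cells express TBX5, NR2F2, EFNB2 and the retinoic acid-synthesising enzyme ALDH1A1, whereas ventral cells express VAX2, EPHB2 and ALDH1A3, and in several mammals cones with the short-wavelength opsin OPN1SW are more frequent ventrally. A piece of retina taken nearer to one pole, with more optic nerve head, myelin or vessels, or with adherent pigment epithelium thus differs in whole sets of genes. Values for these sets are given beside the results they move with.

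The depth by which the FPKM values had been divided ran from 15764577 to 22785832 fragments, so that 1 fragment on a gene of 1000 bases was worth 0.0439 to 0.0634 FPKM. The tissue label held in all 8 retinas, with a summed level of 14 rod genes of 46475 to 60185 FPKM without and 45118 to 49305 with sucrose. Some libraries stood apart. HSD replicate 2 carried skeletal muscle RNA, with a summed level of 27 muscle genes of 820.3 FPKM against 21.1 to 25.8 FPKM in the other 7 retinas, and ACTA1, skeletal muscle actin, at 104.5 FPKM against at most 0.707 FPKM. ND replicate 1 had the highest level of MBP and GFAP, which mark myelin and astrocytes, and the lowest dorsal sum of the retinas without sucrose.

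Sucrose went with a fall of some genes and a smaller rise of others. Of the 12204 genes, 141 (1.16%) were called, 98 lower (0.803%) and 43 higher (0.352%) with sucrose, and in each of the 141 the 4 sucrose retinas lay beyond all 4 others. Without adjustment 2491 genes (20.4%) had p under 0.05, nearly evenly divided between 1251 lower (10.3%) and 1240 higher (10.2%). The sucrose retinas did not overlap with the others in 1571 genes (12.9%), of which 791 were lower (6.48%) and 780 higher (6.39%). The called falls were the larger changes: 43 of the 98, but 4 of the 43 rises, exceeded 1 on the log2 scale, and the medians were -0.85 and 0.66. A symbol was given for 118 of the called genes, while 17 called falls and 6 called rises were protein-coding genes without one.

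The number of calls depended on single retinas. It was 397 without ND replicate 1, 53 without ND replicate 2, 20 without HFD replicate 1, 35 without HFD replicate 2, 20 without HSD replicate 1, 77 without HSD replicate 2, 15 without HFSD replicate 1 and 33 without HFSD replicate 2. Of the 141 genes, 13 were called in every one of these 8 fits. Of the genes described here, 8 (PXYLP1, S100A1, SRGN, S100A13, NR2F2, OPN1SW, SELENOP and SERPINB2) were called in every alternative in which they were tested, and so was EMP2, a membrane protein of epithelia that was picked out after its values were seen.

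The difference was also taken separately without added fat (HSD against ND) and with it (HFSD against HFD), 2 contrasts that share no retina. At 2 retinas a side, 7 genes (0.0574%) passed in the first and 1 (0.00819%) in the second, with 879 (7.20%) and 1847 (15.1%) under 0.05 before adjustment. Over the 12204 genes the differences correlated with r=0.465 and Spearman's rho=0.465, and 67.0% had the same sign, where genes are not independent replicates and the values are a description. The 98 called falls had medians of -0.81 without and -0.91 with added fat, and the 43 called rises had medians of 0.59 and 0.70. Since the called genes were chosen on the combined contrast and none overlapped between the groups, their common sign in both contrasts is fixed by that choice and is shown in the plot of the 2 differences as a description.

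**Figure D1:**
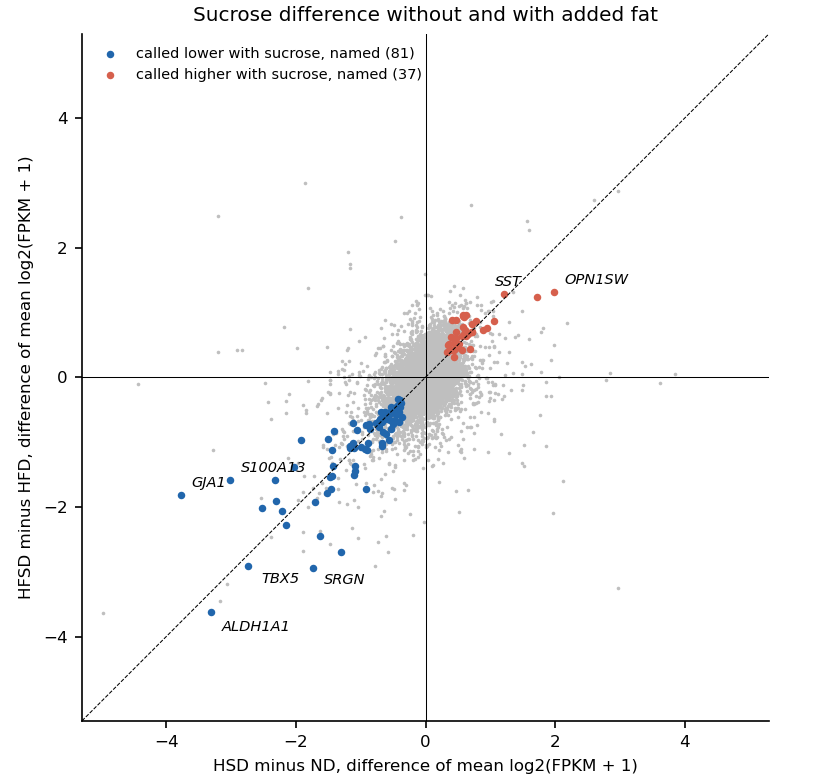
Each dot is 1 of 12204 genes, with the HSD minus ND difference of mean log2(FPKM+1) on the x axis and the HFSD minus HFD difference on the y axis. Blue and red mark the called falls and rises that carry a symbol, and the dashed line marks equal differences. Called genes lie in the lower left and upper right quadrants, as their choice on the combined contrast fixes, with ALDH1A1 and SRGN lowest and OPN1SW and SST farthest right among those with a symbol.

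The largest called fall of a gene with a symbol was that of ALDH1A1, described with the dorsal genes, followed by TBX5 and GJA1. GJA1, the gap junction protein connexin 43 of astrocytes and pigment epithelium, had 36 and 14.1 FPKM on ND, 11.7 and 10.1 on HFD, 0.442 and 1.06 on HSD, and 1.26 and 3.97 on HFSD. The groups did not overlap, and the sucrose retina nearest to the others was HFSD replicate 2. GJA1 fell by 2.8 on the log2 scale (s.e. 0.44, adjusted p=0.0283). GJA1 kept the call only in the fits without ND replicate 1 and HFSD replicate 2 (adjusted p=0.0875 without HFSD replicate 1), and was not called by limma-voom on fragments recovered from the FPKM values.

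The fall with the smallest adjusted p was that of PXYLP1. This gene for a phosphatase that acts on xylose in the linker region of proteoglycans had 140.1 and 240.5 FPKM on ND, 196 and 214 on HFD, 38.1 and 43 on HSD, and 39.4 and 43.9 on HFSD. Its sucrose retinas lay close together, far below all others. Its means were 198±42.6 FPKM without and 41.1±2.75 with sucrose (mean±s.d., n=4 each), which is 4.81 times lower. PXYLP1 fell by 2.21 on the log2 scale (s.e. 0.15, adjusted p=0.000965).

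SRGN, the core protein of the proteoglycan serglycin in secretory granules, had 38.8 and 42.3 FPKM on ND, 59.3 and 62.4 on HFD, 10.5 and 12.6 on HSD, and 6.0 and 8.29 on HFSD. The gap between the groups was wide in both fat contexts, and SRGN was the single gene called in HSD against ND and in HFSD against HFD alike. It fell by 2.34 on the log2 scale (s.e. 0.22, adjusted p=0.00363), and the differences were -1.73 without added fat and -2.94 with it.

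The calcium-binding proteins S100A1 and S100A13 fell together, while the other members of their family did not pass. S100A1 had 122 and 212 FPKM on ND, 184 and 144 on HFD, 27.9 and 26.3 on HSD, and 34.5 and 45.3 on HFSD. Even the highest sucrose retina, HFSD replicate 2, lay far below the lowest of the others, ND replicate 1, and S100A1 fell by 2.27 on the log2 scale (s.e. 0.21, adjusted p=0.0033). S100A13 had 28.4 and 38.7 FPKM on ND, 25.5 and 19.2 on HFD, 2.7 and 3.84 on HSD, and 6.64 and 6.74 on HFSD, and fell by 2.3 on the log2 scale (s.e. 0.27, adjusted p=0.00948). Of 7 tested S100 genes, 0 were called higher and 2 lower, and all 7 had a lower mean with sucrose (median -0.63), against 0.803% called lower over all genes. S100B, an abundant astrocyte and Müller glia member, spanned 362 to 738 FPKM without and 230.1 to 471 with sucrose and did not pass (log2 difference -0.55, s.e. 0.27, adjusted p=0.276).

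The remaining genes among the 12 largest falls included secreted and matrix proteins. ITIH2, a heavy chain that binds hyaluronan, spanned 2.29 to 7.73 FPKM without and 0.286 to 0.992 with sucrose (log2 difference -2.04, s.e. 0.29, adjusted p=0.0217). SPARC, a collagen-binding matrix protein, spanned 229 to 621 FPKM without and 70.3 to 129 with sucrose (log2 difference -1.95, s.e. 0.29, adjusted p=0.0246). PDLIM3, a protein of the actin cytoskeleton, spanned 5.38 to 13.7 FPKM without and 0.93 to 3.76 with sucrose (log2 difference -2.0, s.e. 0.33, adjusted p=0.0333). ITIH2 kept the call only in the fits without ND replicate 1 and HSD replicate 2 (adjusted p=0.0722 without HFD replicate 1). SPARC kept the call only in the fits without ND replicate 1, ND replicate 2 and HFSD replicate 2 (adjusted p=0.0873 without HSD replicate 1). PDLIM3 kept the call only in the fits without ND replicate 1 and HSD replicate 2 (adjusted p=0.101 without HSD replicate 1). Selenoprotein P (SELENOP), a secreted selenium carrier, spanned 238 to 287 FPKM without and 119.6 to 139.9 with sucrose, which is 2.04 times lower in the mean (log2 difference -1.02, s.e. 0.09, adjusted p=0.00225).

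**Figure D2:**
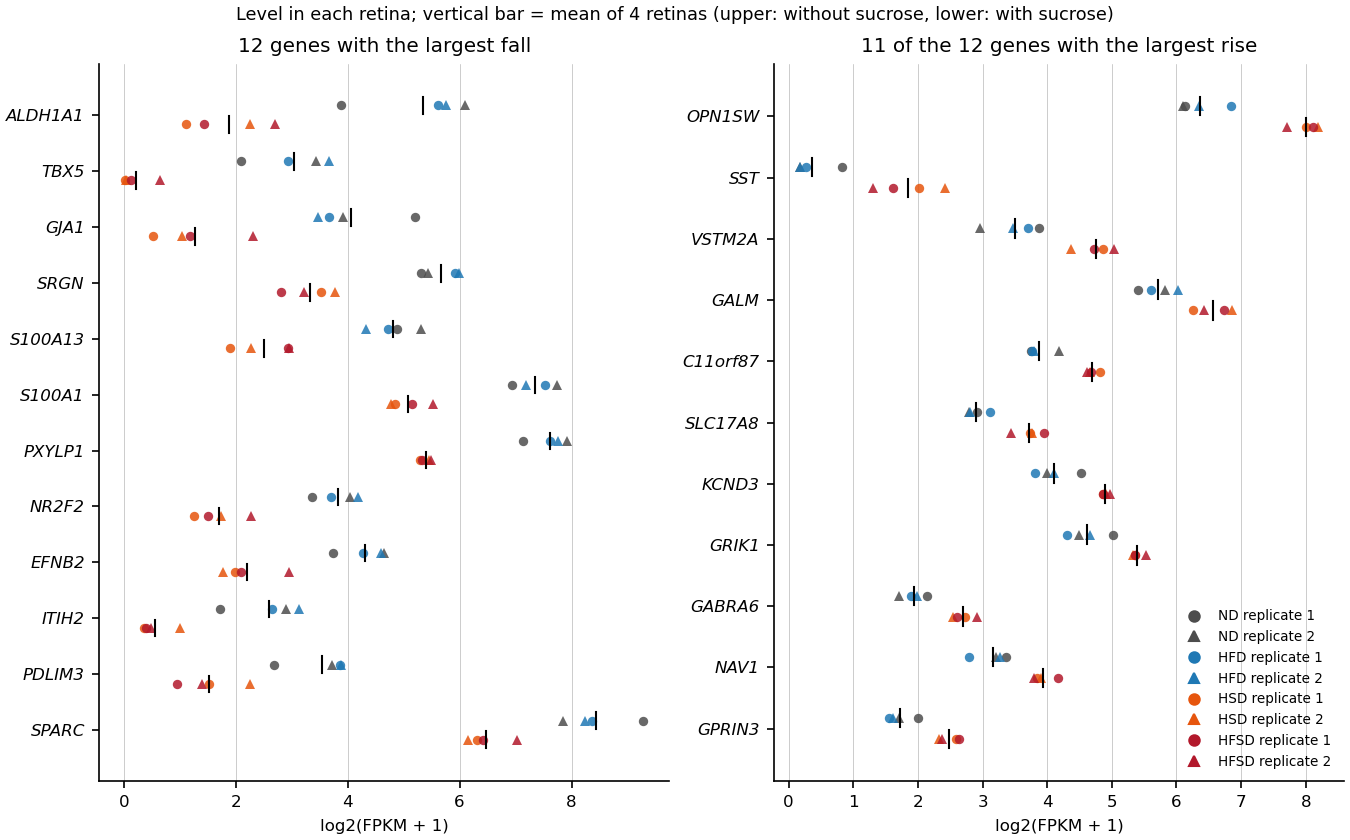
Levels of the 12 genes with a symbol and the largest called fall (left) and of 11 of the 12 with the largest rise (right) in each of the 8 retinas, as log2(FPKM+1) on the x axis. Colour gives the diet, shape the replicate, and vertical bars the means of 4 retinas. In all 23 genes the lower row (sucrose) does not overlap the upper row (no sucrose).

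Several genes of the dorsal retina were lower with sucrose. Of 9 tested dorsal genes, 0 were called higher and 4 lower, 7 did not overlap between the groups, and all 9 had a lower mean (median -0.66, against -0.0073 over all genes, of which 0.803% were called lower and 6.48% did not overlap below). ALDH1A1, which makes retinoic acid from retinal, had 13.8 and 67.5 FPKM on ND, 47.8 and 53.4 on HFD, 1.16 and 3.79 on HSD, and 1.68 and 5.52 on HFSD. The lowest level without sucrose, in ND replicate 1, was well above the highest with sucrose, in HFSD replicate 2. ALDH1A1 fell by 3.47 on the log2 scale (s.e. 0.50, adjusted p=0.0217), with means of 45.6±22.8 FPKM without and 3.04±2.01 with sucrose (mean±s.d., n=4 each). The difference was -3.31 without added fat and -3.62 with it.

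TBX5, a T-box transcription factor that specifies dorsal retina, had 3.27 and 9.85 FPKM on ND, 6.61 and 11.7 on HFD, 0.0175 and 0.032 on HSD, and 0.0848 and 0.56 on HFSD. These values rest on 232, 632, 478, 771, 1, 2, 7 and 32 fragments in the same order, and the 2 HSD retinas held almost none. TBX5 fell by 2.82 on the log2 scale (s.e. 0.32, adjusted p=0.00766), a size that depends on the pseudocount at such low levels. NR2F2, a nuclear receptor expressed dorsally, had 9.3 and 15.5 FPKM on ND, 12.1 and 17.3 on HFD, 1.39 and 2.34 on HSD, and 1.83 and 3.82 on HFSD, and fell by 2.14 on the log2 scale (s.e. 0.24, adjusted p=0.00766). EFNB2, the ephrin ligand of dorsal axons, had 12.3 and 24.2 FPKM on ND, 18.4 and 23.1 on HFD, 2.98 and 2.4 on HSD, and 3.26 and 6.76 on HFSD, and fell by 2.11 on the log2 scale (s.e. 0.28, adjusted p=0.0136). In all 4 genes ND replicate 1 was the lowest retina without sucrose and HFSD replicate 2 the highest with sucrose.

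TBX3, EFNB1 and TBX2 also lay lower in all 4 sucrose retinas without passing the test (log2 difference -0.66, s.e. 0.19, adjusted p=0.114 for TBX3; log2 difference -0.37, s.e. 0.10, adjusted p=0.11 for EFNB1; log2 difference -0.25, s.e. 0.09, adjusted p=0.182 for TBX2). BMP4 and UNC5B overlapped between the groups, with log2 differences of -0.22 and -0.10. NR2F2 and TBX5 kept the call without each retina in turn, although TBX5 was not called by limma-voom. EFNB2 lost the call without HFD replicate 1, HSD replicate 1 or HFSD replicate 1 (highest adjusted p=0.0668 without HFD replicate 1), and ALDH1A1 lost the call without HFD replicate 1, HFD replicate 2, HSD replicate 1 or HFSD replicate 1 (highest adjusted p=0.0722 without HFD replicate 1). ALDH1A1 was also lost in the model of 4 diets (adjusted p=0.057) and without a filter on low values (adjusted p=0.0515).

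Ventral genes did not pass. Of 6 tested, limma called 0 and limma-voom 0, with 2 higher and 1 lower under an unadjusted p of 0.05. Of these genes 5 had a higher mean, and 1 lay above and 1 below all other retinas (median 0.27), against 6.39% above and 6.48% below over all genes. ALDH1A3, the ventral retinoic acid-synthesising enzyme, had 6.76 and 0.194 FPKM on ND, 5.06 and 2.34 on HFD, 11.9 and 13.9 on HSD, and 8.76 and 5.61 on HFSD. It varied most among the retinas without sucrose, with ND replicate 2 lowest, and overlapped with the sucrose retinas (log2 difference 1.51, s.e. 0.53, adjusted p=0.164). VAX2, a ventral transcription factor, spanned 20.9 to 39.6 FPKM without and 30.8 to 43.3 with sucrose (log2 difference 0.26, s.e. 0.19, adjusted p=0.464). Its difference ran from 0.069 to 0.37 when 1 retina was left out. EPHB2, the receptor of ventral axons, spanned 5.91 to 7.75 FPKM without and 8.38 to 10.8 with sucrose (log2 difference 0.39, s.e. 0.11, adjusted p=0.112). EPHB3, another ventral ephrin receptor, lay lower with sucrose, at 1.36 to 1.78 FPKM without and 0.687 to 1.21 with sucrose (log2 difference -0.47, s.e. 0.14, adjusted p=0.115). The summed dorsal level was 113 to 198 FPKM without and 69 to 83.4 with sucrose, and without TBX2, its most abundant member, it was 65.9 to 144.8 FPKM without and 24.4 to 38.2 FPKM with sucrose. The ventral sum overlapped, at 53.8 to 69.4 FPKM without and 60.4 to 87.1 with sucrose. Which part of each retina was sequenced is not given in the sources used here, and the part of position in any result was not tested.

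**Figure D3:**
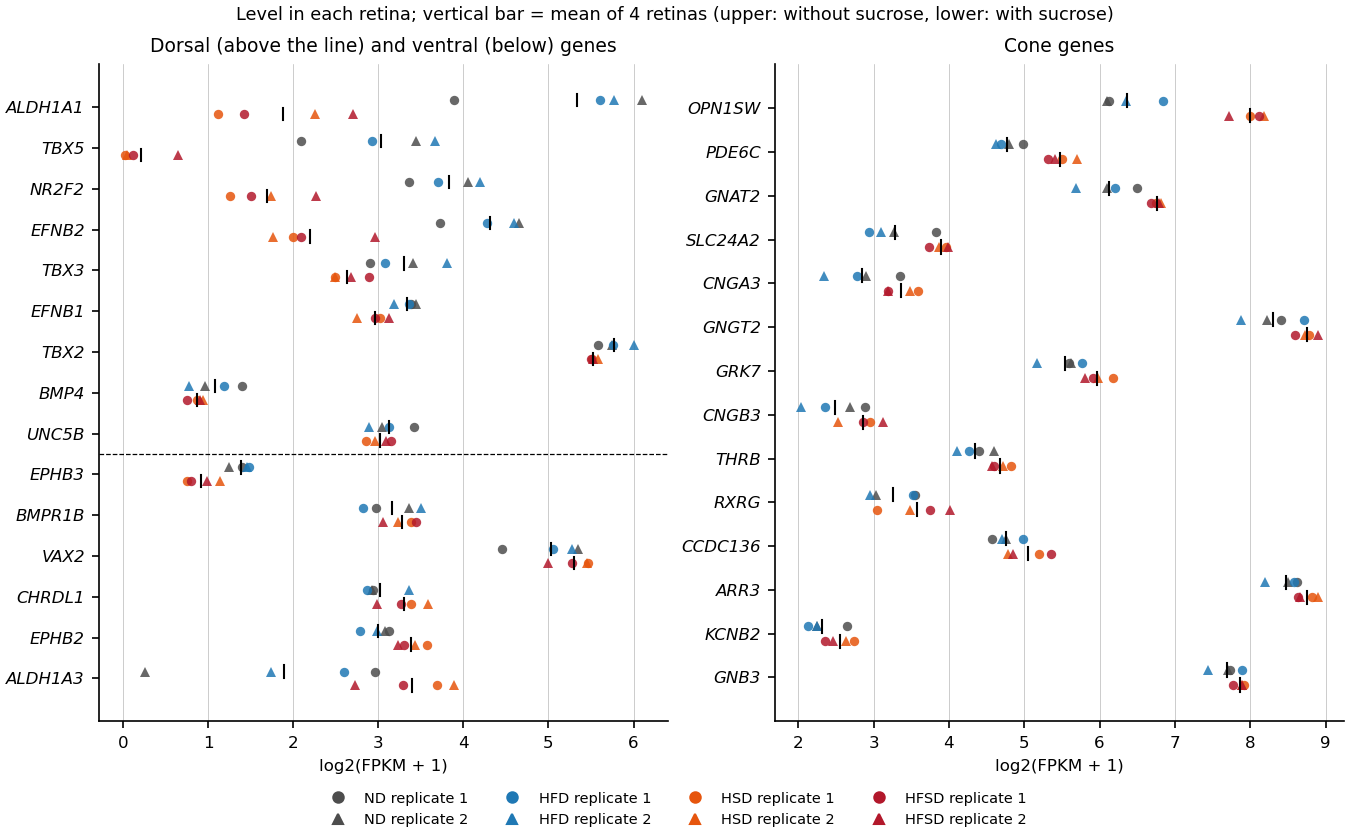
Levels of the 9 dorsal and 6 ventral genes (left, above and below the dashed line) and of the 14 cone genes (right) in each retina, as log2(FPKM+1). The 4 uppermost dorsal genes are separated by sucrose without overlap, the ventral genes except EPHB3 and EPHB2 overlap, and OPN1SW shows the widest gap of the cone genes.

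The short-wavelength opsin and the cone phosphodiesterase were higher with sucrose. All 14 tested cone genes had a higher mean (median 0.40), 2 were called higher and 0 lower, and 5 lay above all other retinas, against 0.352% called higher and 6.39% above over all genes. OPN1SW, the short-wavelength opsin, had 69.1 and 67.6 FPKM on ND, 114 and 80.9 on HFD, 255 and 290.3 on HSD, and 276 and 209 on HFSD. Its mean was 3.1 times higher, 83±21.7 FPKM without and 258±35.7 with sucrose (mean±s.d., n=4 each), and it rose by 1.64 on the log2 scale (s.e. 0.17, adjusted p=0.00613), the largest called rise of a gene with a symbol. OPN1SW kept the call without each retina in turn. PDE6C, the catalytic subunit of the cone phosphodiesterase, had 30.5 and 26.8 FPKM on ND, 24.8 and 23.6 on HFD, 44.4 and 50.9 on HSD, and 38.7 and 41.5 on HFSD, and rose by 0.71 on the log2 scale (s.e. 0.11, adjusted p=0.0246). PDE6C kept the call only in the fits without ND replicate 1 and HSD replicate 2 (adjusted p=0.0873 without HSD replicate 1).

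GNAT2, the cone transducin, GRK7, the cone opsin kinase, and ARR3, cone arrestin, lay above all other retinas without passing (log2 difference 0.64, s.e. 0.15, adjusted p=0.0796 for GNAT2; log2 difference 0.43, s.e. 0.13, adjusted p=0.129 for GRK7; log2 difference 0.28, s.e. 0.11, adjusted p=0.209 for ARR3). The summed cone level was 957 to 1379 FPKM without and 1585 to 1745 with sucrose, and with OPN1SW taken out it was 876.5 to 1265 FPKM without and 1309 to 1459 FPKM with sucrose, still without overlap. Of 14 rod genes, limma and limma-voom called 0, with 1 higher and 2 lower under an unadjusted p of 0.05, and 5 had a higher and 9 a lower mean (median -0.14), and the summed rod level overlapped. Of the rod genes 3 lay below and 1 above all other retinas, against 6.48% and 6.39% over all genes. The ventral gene EPHB2 also lay above all other retinas, whereas ALDH1A3, VAX2 and the summed ventral level overlapped, and the part of position in the OPN1SW level was not tested.

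Among genes of retinoic acid and retinol handling, 2 of 27 were called lower and 0 higher, 6 lay below and 0 above all other retinas, and the median was -0.099, against 0.803% called lower and 6.48% below over all genes. These were ALDH1A1 and CYP26B1. CYP26B1, an enzyme that degrades retinoic acid, had 3.44 and 2.56 FPKM on ND, 2.66 and 4.23 on HFD, 0.958 and 0.801 on HSD, and 0.511 and 0.903 on HFSD. The groups did not overlap. CYP26B1 fell by 1.22 on the log2 scale (s.e. 0.16, adjusted p=0.0136), with differences of -1.08 without added fat and -1.37 with it, and lost the call without HFSD replicate 1 (adjusted p=0.0554). Its relatives CYP26A1 and CYP26C1 overlapped between the groups (log2 difference 0.12, s.e. 0.38, adjusted p=0.884 for CYP26A1; log2 difference 0.48, s.e. 0.35, adjusted p=0.46 for CYP26C1), as did the retinoic acid receptors RARA, RARB and RARG (log2 differences -0.10, -0.03 and 0.12). RLBP1, the retinal carrier of Müller glia and pigment epithelium, lay lower in all sucrose retinas, at 149.8 to 305 FPKM without and 92.6 to 131 with sucrose, and missed the limit (log2 difference -1.0, s.e. 0.20, adjusted p=0.0539).

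Of the pigment epithelium genes, RPE65, RDH5, TTR and STRA6 overlapped between the groups, while RLBP1, LRAT, TRPM1, C1QTNF5 and SLC6A13 lay below all other retinas. RPE65, the isomerase of the visual cycle, had 119 and 74.6 FPKM on ND, 34.8 and 10.1 on HFD, 18.9 and 13.7 on HSD, and 25.6 and 12.1 on HFSD. Its HFD retinas overlapped with the sucrose retinas, and the difference of -1.29 (s.e. 0.63, adjusted p=0.279) was -2.48 without added fat and -0.10 with it. RDH5, a retinol dehydrogenase, had 14.8 and 13.5 FPKM on ND, 2.72 and 2.73 on HFD, 1.82 and 1.79 on HSD, and 3.21 and 0.956 on HFSD, with differences of -2.43 without added fat and -0.38 with it. TTR, the thyroid hormone and retinol carrier transthyretin, had 144 and 88.6 FPKM on ND, 26.9 and 20 on HFD, 12.4 and 9.39 on HSD, and 21.4 and 4.52 on HFSD, and its sucrose levels overlapped with HFD (log2 difference -2.2, s.e. 0.63, adjusted p=0.115). STRA6 and LRAT, which take up and esterify retinol, were likewise high in the 2 ND retinas and at or below 1 FPKM in the other 6.

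Of 18 tested pigment epithelium genes, 1 was called lower and 0 higher, 17 had a lower mean (median -0.99), 14 were lower under an unadjusted p of 0.05, and 5 lay below all other retinas. Over all genes 0.803% were called lower, 10.3% were lower under an unadjusted p of 0.05 and 6.48% lay below. The median was -1.37 in HSD against ND and -0.41 in HFSD against HFD. The summed level of the list was 624 to 984 FPKM without and 317 to 430.1 with sucrose, and without RLBP1 and RGR, which Müller glia also express, it was 220.6 to 526.9 FPKM without and 139.2 to 201.1 FPKM with sucrose. That sum still held TRPM1, which ON bipolar cells also express, at 61.52 to 81.74 FPKM without and 44.99 to 61.49 with sucrose. It is therefore not a measure of pigment epithelium alone. The called gene was C1QTNF5, a secreted protein of the pigment epithelium, with 26.2 and 24.7 FPKM on ND, 19.3 and 20.3 on HFD, 5.63 and 12.8 on HSD, and 5.88 and 6.49 on HFSD. Unlike RPE65, C1QTNF5 was separated from sucrose in both HFD retinas. It fell by 1.5 on the log2 scale (s.e. 0.22, adjusted p=0.0246), and kept the call only in the fits without ND replicate 1 and HSD replicate 2 (adjusted p=0.0766 without HSD replicate 1). Of 8 melanin genes, limma and limma-voom called 0, with 1 higher and 3 lower under an unadjusted p of 0.05, 6 had a lower mean, and their sum overlapped at 44.5 to 104 FPKM without and 44.5 to 62.1 with sucrose. TYR, tyrosinase, had a difference of -0.66 (s.e. 0.19, adjusted p=0.111). The part of adherent pigment epithelium in the results was not tested.

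Some genes of Müller glia were lower with sucrose. GLUL, which makes glutamine from glutamate, had 1489 and 2127 FPKM on ND, 1685 and 1552 on HFD, 754 and 883 on HSD, and 722 and 889.7 on HFSD. Its mean was 2.11 times lower with sucrose, 1713±288 FPKM without and 812±86.7 with sucrose (mean±s.d., n=4 each). GLUL fell by 1.07 on the log2 scale (s.e. 0.14, adjusted p=0.0136), with differences of -1.12 without added fat and -1.01 with it, and lost the call without HSD replicate 1 or HFSD replicate 1 (highest adjusted p=0.0566 without HFSD replicate 1). In the model of 4 diets its adjusted p was 0.0501. DBI, an acyl-CoA-binding protein that also modulates GABA receptors, spanned 143 to 219.8 FPKM without and 94.2 to 120.3 with sucrose (log2 difference -0.75, s.e. 0.13, adjusted p=0.0358). CLU, the chaperone and complement regulator clusterin, spanned 734 to 825 FPKM without and 488 to 583 with sucrose (log2 difference -0.50, s.e. 0.09, adjusted p=0.0358). DBI kept the call only in the fit without ND replicate 1 (adjusted p=0.108 without HFSD replicate 2), and CLU kept the call only in the fit without ND replicate 1 (adjusted p=0.109 without HFSD replicate 2).

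Of 24 tested Müller glia genes, 0 were called higher and 3 lower, 8 lay below and 3 above all other retinas, and the median was -0.20. Over all genes these shares were 0.352%, 0.803%, 6.48% and 6.39%. The glutamate transporter SLC1A3, the potassium channel KCNJ10 and the transcription factor SOX9 had differences of -0.01, 0.03 and -0.06, whereas CAV1, caveolin, and TRPM3, a cation channel, lay above all other retinas (log2 difference 0.35, s.e. 0.07, adjusted p=0.0539 for CAV1; log2 difference 0.48, s.e. 0.11, adjusted p=0.0853 for TRPM3). The summed Müller level was 4571 to 6154 FPKM without and 3731 to 3922 with sucrose. It overlapped once GLUL was taken out, at 3082 to 4027 FPKM without and 2851 to 3168 FPKM with sucrose.

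Among astrocyte and myelin genes, GJA1 was the single call. GFAP, the intermediate filament of astrocytes and reactive Müller glia, had 524 and 12.1 FPKM on ND, 216 and 203 on HFD, 2.37 and 1.08 on HSD, and 3.05 and 69.5 on HFSD. ND replicate 2 lay below HFSD replicate 2, and the difference did not pass (log2 difference -4.3, s.e. 1.30, adjusted p=0.127). MBP, myelin basic protein, had 252 and 6.55 FPKM on ND, 172 and 104 on HFD, 4.34 and 4.16 on HSD, and 4.02 and 41.9 on HFSD, again with ND replicate 2 among the low retinas (log2 difference -3.13, s.e. 1.10, adjusted p=0.167). MOG, a surface protein of myelin, did not pass either (log2 difference -0.77, s.e. 0.20, adjusted p=0.0991). All 20 tested myelin genes had a lower mean (median -1.30), 16 of them with an unadjusted p under 0.05, but limma and limma-voom called 0 and 1 gene was separated. Over all genes 10.3% were lower under an unadjusted p of 0.05, 0.803% were called lower and 6.48% lay below. The summed myelin level was 1641 to 2120.3 FPKM without and 767 to 971 with sucrose, of which transferrin (TF), a gene that other retinal cells also express, made up most. Without TF the sums overlapped, at 106.8 to 812.7 FPKM without and 54.8 to 178.1 FPKM with sucrose. Of 11 astrocyte genes, GJA1 was called lower and 0 were called higher, and limma-voom called 0.

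The dorsal sum and MBP were highest in different retinas. ND replicate 2 had a summed dorsal level of 197.7 FPKM, the highest of the 8, and the lowest levels of MBP and GFAP among the retinas without sucrose, while ND replicate 1 had the highest MBP and the lowest dorsal sum of these 4. Among the sucrose retinas, HFSD replicate 2 was highest in both the dorsal sum (83.4 FPKM) and MBP. The part of optic nerve or myelin in the results was not tested.

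**Figure D4:**
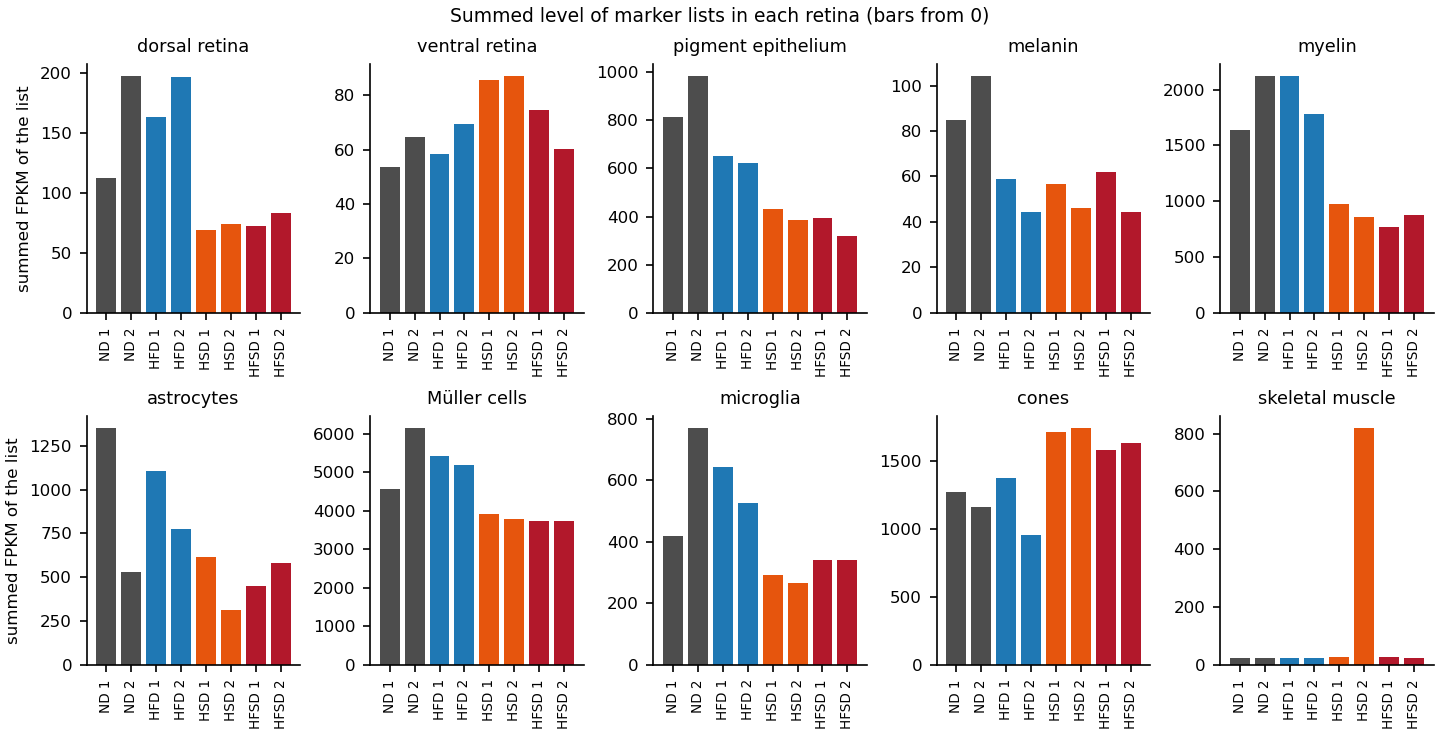
Summed FPKM of 10 marker lists in each of the 8 retinas, coloured by diet. Dorsal, pigment epithelium, myelin, Müller and microglia sums are lower and the cone sum is higher in all 4 sucrose retinas, the ventral, melanin and astrocyte sums overlap, and the muscle sum is high in HSD replicate 2 alone.

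Some transporters of the blood-retinal barrier were lower with sucrose. Of 27 tested, 5 were called lower and 0 higher, 9 lay below and 0 above all other retinas, and the median was -0.43. Over all genes, 0.803% were called lower and 6.48% lay below. SLC2A1, the facilitative glucose transporter GLUT1, had 246 and 297 FPKM on ND, 289 and 303 on HFD, 206 and 169 on HSD, and 193 and 211 on HFSD. Which cells held its RNA was not tested. The groups were separated, with means of 284±26.1 FPKM without and 195±18.8 with sucrose (mean±s.d., n=4 each). SLC2A1 fell by 0.54 on the log2 scale (s.e. 0.10, adjusted p=0.0384), with differences of -0.53 without added fat and -0.55 with it. SLC2A1 kept the call only in the fit without ND replicate 1 (adjusted p=0.124 without HFSD replicate 1).

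SLC3A2, the heavy chain shared by several amino acid exchangers, spanned 54.9 to 65.2 FPKM without and 44.6 to 45.3 with sucrose (log2 difference -0.43, s.e. 0.07, adjusted p=0.0336), whereas its light chain partner SLC7A5 did not pass (log2 difference -0.04, s.e. 0.11, adjusted p=0.857). SLC13A3, a carrier of dicarboxylates, spanned 3.32 to 6.86 FPKM without and 0.86 to 2.0 with sucrose (log2 difference -1.48, s.e. 0.22, adjusted p=0.0236). SLCO1C1, a carrier of thyroid hormone, had 18.3 and 11 FPKM on ND, 13.9 and 9.02 on HFD, 2.73 and 3.33 on HSD, and 3.51 and 7.67 on HFSD, and fell by 1.44 on the log2 scale (s.e. 0.28, adjusted p=0.0455). SLC13A3 lost the call without ND replicate 2, HFD replicate 1, HFSD replicate 1 or HFSD replicate 2 (highest adjusted p=0.0722 without HFD replicate 1). SLC3A2 kept the call only in the fit without ND replicate 1 (adjusted p=0.103 without HSD replicate 1). SLCO1C1 kept the call only in the fit without HFSD replicate 2 (adjusted p=0.136 without HFSD replicate 1).

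MFSD2A, the carrier of docosahexaenoic acid lipids in barrier cells, lay below all other retinas as well, at 2.41 to 9.28 FPKM without and 1.35 to 2.3 with sucrose (log2 difference -1.28, s.e. 0.30, adjusted p=0.0822). Of 15 thyroid hormone genes, 2 were called lower, SLCO1C1 among them, and 0 higher, against 0.803% and 0.352% over all genes. The receptors THRA and THRB had differences of 0.00 and 0.33, and THRSP, a thyroid hormone-responsive gene of lipid synthesis, lay above all other retinas, at 0.363 to 1.58 FPKM without and 1.68 to 3.36 with sucrose (log2 difference 0.85, s.e. 0.22, adjusted p=0.0954).

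Of 15 endothelial genes, SLC2A1 was the single call, against 0.803% called lower over all genes, and 12 had a lower mean (median -0.61). CLDN5, the tight junction protein claudin 5, had 28 and 1.03 FPKM on ND, 20.3 and 6.76 on HFD, 1.16 and 0.794 on HSD, and 0.534 and 6.85 on HFSD, and ND replicate 2 lay among the sucrose retinas (log2 difference -1.93, s.e. 0.82, adjusted p=0.227). KDR and FLT1, the VEGF receptors, had differences of 0.00 and 0.32. The summed endothelial level was 413 to 489 FPKM without and 307 to 364 with sucrose, most of it SLC2A1. Without SLC2A1 the sums overlapped, at 163 to 188 FPKM without and 137 to 171 FPKM with sucrose. KDR, the most abundant gene left, spanned 75.8 to 128.8 FPKM without and 91.5 to 130.8 with sucrose. PECAM1 and VWF reached at most 1.63 and 3.77 FPKM, so these sums say little about such low genes. The part of vessel content in the transporter levels was not tested. Of 7 pericyte and smooth muscle genes, all had a lower mean and 4 an unadjusted p under 0.05, and limma and limma-voom called 0.

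Of 25 genes of glucose uptake and glycolysis, SLC2A1 was called lower and 0 were called higher, against 0.803% and 0.352% over all genes, 9 had a higher and 16 a lower mean, and the median was -0.035. That median changed sign when 1 retina was left out, from -0.11 to 0.024. HK2, the hexokinase enriched in photoreceptors, had 95.6 and 76 FPKM on ND, 79.7 and 57.5 on HFD, 109.6 and 78.1 on HSD, and 106 and 119 on HFSD (log2 difference 0.42, s.e. 0.17, adjusted p=0.204). ALDOC, aldolase C, lay below all other retinas, at 4083 to 6131 FPKM without and 3227 to 3804 with sucrose, without passing (log2 difference -0.50, s.e. 0.16, adjusted p=0.133). PFKFB2, which sets the level of the phosphofructokinase activator, lay above them, at 52.7 to 62.1 FPKM without and 64 to 79.6 with sucrose (log2 difference 0.30, s.e. 0.09, adjusted p=0.139). PDK4, which restrains pyruvate oxidation, stood at 1.01 to 1.96 FPKM without and 0.684 to 1.04 with sucrose (log2 difference -0.47, s.e. 0.16, adjusted p=0.158), and LDHA, lactate dehydrogenase, and PKM, pyruvate kinase, had differences of 0.05 and -0.17.

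Of 23 genes of fructose, polyol and sugar sensing, 1 was called in each direction, against 0.352% called higher and 0.803% lower over all genes, and the median was -0.01. TKFC, the triokinase that phosphorylates glyceraldehyde from fructose, had 25.8 and 29 FPKM on ND, 25.7 and 27.3 on HFD, 21.9 and 19.7 on HSD, and 20.7 and 19.3 on HFSD. The groups did not overlap, and TKFC fell by 0.39 on the log2 scale (s.e. 0.07, adjusted p=0.0434). KHK, ketohexokinase, which takes the preceding step of fructose breakdown, had 31.5 and 30.1 FPKM on ND, 34.4 and 29.7 on HFD, 23.1 and 26 on HSD, and 28.8 and 26.4 on HFSD. It too lay lower in all sucrose retinas, but did not pass (log2 difference -0.26, s.e. 0.08, adjusted p=0.143). GALM, the mutarotase that interconverts the anomers of galactose and glucose, had 41.2 and 55.9 FPKM on ND, 47.9 and 64 on HFD, 75.5 and 115 on HSD, and 106 and 85.3 on HFSD, and rose by 0.86 on the log2 scale (s.e. 0.16, adjusted p=0.0446).

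The polyol pathway genes did not pass. AKR1B1, aldose reductase, had 14.7 and 18.8 FPKM on ND, 18.7 and 14 on HFD, 18.2 and 15.1 on HSD, and 12.8 and 14.9 on HFSD (log2 difference -0.11, s.e. 0.13, adjusted p=0.672). SORD, sorbitol dehydrogenase, had 18.3 and 33.4 FPKM on ND, 34.4 and 38.2 on HFD, 48.6 and 36.4 on HSD, and 31.6 and 23.1 on HFSD (log2 difference 0.17, s.e. 0.26, adjusted p=0.744), and its difference was -0.061 without ND replicate 1 and -0.0055 without HSD replicate 1. TXNIP, a glucose-induced inhibitor of thioredoxin, had 7.01 and 5.98 FPKM on ND, 6.22 and 7.7 on HFD, 2.84 and 7.28 on HSD, and 6.16 and 3.83 on HFSD (log2 difference -0.42, s.e. 0.22, adjusted p=0.317). TKFC kept the call only in the fit without ND replicate 1 (adjusted p=0.132 without HFSD replicate 2), and was not called by limma-voom. GALM kept the call only in the fit without ND replicate 1 (adjusted p=0.136 without HFSD replicate 1).

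UGP2, which makes the UDP-glucose from which glycogen is built, lay above all other retinas, at 30.00 to 34.8 FPKM without and 38.3 to 43.6 with sucrose (log2 difference 0.32, s.e. 0.07, adjusted p=0.0818), and PYGM, the muscle phosphorylase, was at 17.9 FPKM in HSD replicate 2, the retina with muscle RNA, and at 1.05 to 3.50 FPKM elsewhere. Of 21 genes of insulin and IGF signalling, limma and limma-voom called 0, with 6 higher and 3 lower under an unadjusted p of 0.05. Of them 16 had a higher and 5 a lower mean, and INSR, the insulin receptor, had a difference of 0.17 (s.e. 0.10, adjusted p=0.388). IGFBP5, a binding protein of insulin-like growth factors, lay below all other retinas, at 25.5 to 66.7 FPKM without and 10.2 to 24 with sucrose, without passing (log2 difference -1.33, s.e. 0.30, adjusted p=0.0768).

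Among lipid genes, of 19 genes of cholesterol synthesis and uptake, limma and limma-voom called 0, with 1 lower under an unadjusted p of 0.05, and 9 had a higher and 10 a lower mean.

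Some receptors for transmitters were higher with sucrose. Of 44 tested, 3 were called higher and 0 lower, 20 lay above and 0 below all other retinas, and 33 had a higher and 11 a lower mean (median 0.34). Over all genes, 0.352% were called higher and 6.39% lay above. The receptors of inhibitory transmitters held most of the separated genes. Of 14 GABA-A receptor subunits, 12 had a higher mean and 11 lay above all other retinas, with a median of 0.42 and a range of -0.14 to 0.77. Of 5 glycine receptor subunits, all 5 had a higher mean and 4 lay above (median 0.51). Of 4 AMPA, 3 NMDA and 5 kainate receptor subunits, 4, 1 and 2 had a higher mean (medians 0.35, -0.05 and -0.11) and 0, 1 and 1 lay above. Of 8 metabotropic glutamate receptors, 6 had a higher mean and 2 lay above (median 0.21).

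GABRA6, a GABA-A receptor subunit, had 3.42 and 2.27 FPKM on ND, 2.72 and 2.96 on HFD, 5.66 and 4.86 on HSD, and 5.11 and 6.53 on HFSD, and rose by 0.77 on the log2 scale (s.e. 0.13, adjusted p=0.0336). GLRA2, a glycine receptor subunit of amacrine cells, had 11 and 10.1 FPKM on ND, 10.5 and 12 on HFD, 15.5 and 14 on HSD, and 17.5 and 16.1 on HFSD, and rose by 0.50 on the log2 scale (s.e. 0.09, adjusted p=0.0374). GRIK1, a kainate receptor subunit of OFF bipolar cells, had 31.4 and 21.6 FPKM on ND, 18.9 and 24.3 on HFD, 39.8 and 39 on HSD, and 40.2 and 45.3 on HFSD, and rose by 0.77 on the log2 scale (s.e. 0.14, adjusted p=0.0358). In each of the 3 genes the lowest sucrose retina lay above the highest of the others. GABRA6 kept the call only in the fits without ND replicate 1 and HSD replicate 2 (adjusted p=0.103 without HSD replicate 1). GLRA2 kept the call only in the fits without ND replicate 1 and HSD replicate 2 (adjusted p=0.124 without HFSD replicate 1). GRIK1 kept the call only in the fit without ND replicate 1 (adjusted p=0.113 without HFSD replicate 1). With libraries rescaled to an equal sum, the median difference over all genes was 0.0699 in place of -0.0073 on the log2 scale. GABRA6 kept the call there, while GLRA2 and GRIK1 lost it (adjusted p=0.0536 and 0.0576). The differences of GLRA2 and GRIK1 were larger in that fit, at 0.59 and 0.86.

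Of 17 amacrine genes, SST was called higher and VIP lower, against 0.352% and 0.803% over all genes, and the median was 0.13. SST, the neuropeptide somatostatin, had 0.778 and 0.136 FPKM on ND, 0.20 and 0.132 on HFD, 3.05 and 4.36 on HSD, and 2.07 and 1.47 on HFSD. Those values rest on 19, 3, 5, 3, 60, 94, 59 and 29 fragments in the same order, and SST rose by 1.48 on the log2 scale (s.e. 0.26, adjusted p=0.0346). VIP, the neuropeptide vasoactive intestinal peptide, had 3.57 and 2.81 FPKM on ND, 5.36 and 6.73 on HFD, 1.36 and 1.06 on HSD, and 0.719 and 1.6 on HFSD, and fell by 1.33 on the log2 scale (s.e. 0.23, adjusted p=0.0346). SST kept the call only in the fits without ND replicate 1 and HFSD replicate 2 (adjusted p=0.103 without HSD replicate 1), and VIP kept the call only in the fits without ND replicate 1 and ND replicate 2 (adjusted p=0.109 without HFSD replicate 1). GAD1, GAD2 and SLC32A1, which make and load GABA, had differences of 0.03, -0.08 and 0.07. SLC17A8, the vesicular glutamate transporter of a class of amacrine cells, spanned 5.93 to 7.64 FPKM without and 9.85 to 14.4 with sucrose (log2 difference 0.81, s.e. 0.12, adjusted p=0.0246), and kept the call only in the fits without ND replicate 1 and HFSD replicate 2 (adjusted p=0.0873 without HSD replicate 1).

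Of 17 bipolar genes, GRIK1 alone was called, as higher, against 0.352% over all genes. SCGN, a calcium-binding protein of cone bipolar cells, and FEZF2, a transcription factor of bipolar cells, lay above all other retinas (log2 difference 0.95, s.e. 0.21, adjusted p=0.0684 for SCGN; log2 difference 0.69, s.e. 0.15, adjusted p=0.0733 for FEZF2), whereas the ON bipolar channel TRPM1 lay below them (log2 difference -0.40, s.e. 0.11, adjusted p=0.112). Of 16 ganglion cell genes, limma and limma-voom called 0, with 2 higher and 1 lower under an unadjusted p of 0.05. Of 10 horizontal cell genes, 1 was called lower, SEPT4, a septin that the table lists under the date-like name 04-Sep, at 138 to 161 FPKM without and 84.6 to 114 with sucrose (log2 difference -0.54, s.e. 0.11, adjusted p=0.0474), against 0.803% called lower over all genes. It lost the call whichever retina was left out (highest adjusted p=0.113 without HFSD replicate 1).

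Further rises among the 12 largest included genes of neuronal membranes. VSTM2A, a secreted immunoglobulin-domain protein, had 13.6 and 6.79 FPKM on ND, 12.1 and 10.1 on HFD, 28.2 and 19.8 on HSD, and 25.4 and 31.7 on HFSD, and rose by 1.25 on the log2 scale (s.e. 0.20, adjusted p=0.0334). VSTM2A kept the call only in the fits without ND replicate 1, ND replicate 2 and HSD replicate 2 (adjusted p=0.103 without HSD replicate 1). KCND3, an A-type potassium channel, spanned 13 to 21.9 FPKM without and 28 to 30.5 with sucrose (log2 difference 0.79, s.e. 0.14, adjusted p=0.0346). NAV1, a microtubule-binding guidance protein, GPRIN3, a G protein-interacting protein, and C11orf87 rose by 0.77, 0.76 and 0.82 on the log2 scale, respectively (adjusted p=0.0359, adjusted p=0.0352 and adjusted p=0.0136). C11orf87 lost the call without HFD replicate 1, HSD replicate 1 or HFSD replicate 1 (highest adjusted p=0.0583 without HFD replicate 1). KCND3 kept the call only in the fit without ND replicate 1 (adjusted p=0.103 without HSD replicate 1), and so did NAV1 (adjusted p=0.113 without HFSD replicate 1) and GPRIN3 (adjusted p=0.114 without HFSD replicate 1).

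Some genes of complement and coagulation were lower with sucrose. Of 22 tested, 3 were called lower and 0 higher, 6 lay below and 0 above all other retinas, and the median was -0.46, against 0.803% called lower and 6.48% below over all genes. SERPINB2, the plasminogen activator inhibitor 2, had 2.67 and 3.97 FPKM on ND, 2.6 and 4.92 on HFD, 0.292 and 0.339 on HSD, and 0.0405 and 0.409 on HFSD. These low levels rest on 170, 229, 169, 292, 15, 19, 3 and 21 fragments in the same order, and SERPINB2 fell by 1.82 on the log2 scale (s.e. 0.19, adjusted p=0.00613). It kept the call without each retina in turn. SERPING1, the inhibitor of complement C1, had 1.85 and 2.15 FPKM on ND, 2.61 and 2.64 on HFD, 0.818 and 1.27 on HSD, and 0.977 and 0.728 on HFSD, and fell by 0.77 on the log2 scale (s.e. 0.14, adjusted p=0.0384). SERPING1 kept the call only in the fits without ND replicate 1 and HSD replicate 2 (adjusted p=0.115 without HFSD replicate 1). Clusterin was the other called gene. The C1q chains C1QA, C1QB and C1QC, which microglia make, lay below all other retinas without passing (log2 difference -0.87, s.e. 0.17, adjusted p=0.0505 for C1QC, the nearest to the limit).

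Of 15 microglia genes, limma and limma-voom called 0, with 7 lower under an unadjusted p of 0.05. Of them 14 had a lower mean and 5 lay below all other retinas (median -0.49), against 6.48% below over all genes. CSF1R, the receptor on which microglia depend, spanned 1.64 to 2.38 FPKM without and 0.583 to 1.12 with sucrose (log2 difference -0.61, s.e. 0.15, adjusted p=0.0864), while CX3CR1 and P2RY12 overlapped between the groups (log2 differences -0.25 and -0.12). The summed level was 419.5 to 771 FPKM without and 265 to 341 with sucrose, most of it SPP1, which ganglion cells and other cells also express. Without SPP1 the sums overlapped, at 55.4 to 77.1 FPKM and 48.3 to 55.5 FPKM.

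In the TGF-β and BMP list, 2 of 28 genes were called lower and 0 higher (median -0.14), against 0.803% called lower over all genes. BAMBI, a decoy receptor that dampens BMP and TGF-β signals, had 26.9 and 24.3 FPKM on ND, 23.8 and 31.8 on HFD, 12.9 and 11.7 on HSD, and 10.1 and 15.6 on HFSD. The groups did not overlap in either fat context. BAMBI fell by 1.04 on the log2 scale (s.e. 0.14, adjusted p=0.0136), and lost the call without HSD replicate 1 or HFSD replicate 1 (highest adjusted p=0.055 without HSD replicate 1). In the model of 4 diets its adjusted p was 0.0501. TGFB2, a ligand, had 16.1 and 16.7 FPKM on ND, 14.7 and 20.3 on HFD, 10.6 and 11.3 on HSD, and 9.35 and 9.57 on HFSD, and fell by 0.67 on the log2 scale (s.e. 0.11, adjusted p=0.0322). TGFB2 kept the call only in the fits without ND replicate 1 and HSD replicate 2 (adjusted p=0.0971 without HFSD replicate 1). ID1 and ID3, early targets of BMP signals, overlapped between the groups (log2 difference -1.32, s.e. 0.48, adjusted p=0.178 for ID1; log2 difference -1.64, s.e. 0.56, adjusted p=0.158 for ID3), with the highest levels in HFD replicate 2.

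Immediate early genes showed how far 2 retinas of 1 diet could differ. All 15 tested had a lower mean with sucrose (median -0.81), 3 with an unadjusted p under 0.05. The median ran from -1.11 to -0.36 when 1 retina was left out. Limma and limma-voom called 0, and 1 lay below all other retinas, against 6.48% over all genes. FOS had 285 and 51.3 FPKM on ND, 10.01 and 222 on HFD, 90.9 and 54.2 on HSD, and 63.6 and 60.6 on HFSD, and DUSP1, an early-response phosphatase, had 55.2 FPKM in HFD replicate 2 and at most 7.57 FPKM elsewhere. These genes respond quickly to handling and light, and the part of collection in their levels was not tested.

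The effect of sucrose differed with fat, by the interaction test, in 1 gene (0.00819%), with 456 genes (3.74%) under 0.05 before adjustment. It was a protein-coding gene without a symbol, at 23.4 and 15.8 FPKM on ND, 349.6 and 251.5 on HFD, 255.8 and 240.3 on HSD, and 258.9 and 298 on HFSD, and the 2 ND retinas stood below the other 6. The sucrose difference was 3.62 without and -0.094 with added fat (interaction -3.71, s.e. 0.31, adjusted p=0.0489). This call was kept without ND replicate 1 (adjusted p=0.0264) or HSD replicate 1 (0.0492) and lost without ND replicate 2 (0.0677), HFD replicate 1 (0.126), HFD replicate 2 (0.0601), HSD replicate 2 (0.389), HFSD replicate 1 (0.218) or HFSD replicate 2 (0.102). It was also lost with a pseudocount of 0.1 (adjusted p=0.0502), with limma-voom (0.0542), with FPKM rescaled by the median ratio (0.0502), with a replicate block (0.0739), without a mean-variance trend (0.114) and without a filter (0.139). Named by the smallest p among genes with a symbol, 3 genes for which the interaction was negative and 3 for which it was positive did not pass. BAG2, a co-chaperone of HSP70, had 37 and 36.7 FPKM on ND, 71.3 and 70.1 on HFD, 75.7 and 72.2 on HSD, and 55.8 and 53.7 on HFSD, with an interaction of -1.35 (s.e. 0.13, adjusted p=0.0879). CRYBB2, a crystallin, had 2.92 and 3.83 FPKM on ND, 6.06 and 8.23 on HFD, 12.2 and 10.9 on HSD, and 3.85 and 2.19 on HFSD, with -2.56 (s.e. 0.34, adjusted p=0.248), and KCNG4, a modulatory potassium channel subunit, had 9.28 and 8.44 FPKM on ND, 12.2 and 15.6 on HFD, 10.4 and 9.04 on HSD, and 5.11 and 4.51 on HFSD, with -1.47 (s.e. 0.22, adjusted p=0.479). S100A13, STRA6 and TRIM67 had positive interactions of 1.43, 1.75 and 0.99, all with adjusted p=0.999.

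The 37 lists held 594 tested genes, of which 34 (5.72%) were called, against 1.16% over all 12204 genes, and the lists were drawn up with earlier results of these data known. The other 107 of the 141 called genes were in none of them, and 16 lists held 0 calls. Among lists with at least 6 tested members, those with the lowest medians, myelin and pigment epithelium, held 0 and 1 calls, while the dorsal list held 4. Of 31 genes of mitochondrial respiration, 26 had a lower mean (median -0.13, and -0.18 to -0.042 without 1 retina) and 3 an unadjusted p under 0.05, and limma and limma-voom called 0. Of 28 antioxidant and hypoxia genes, SELENOP was called lower and 0 were called higher, against 0.803% and 0.352%, and of 19 chaperone genes limma and limma-voom called 0, with 4 higher and 4 lower under an unadjusted p of 0.05. The plot of list members shows where single called genes stand apart from the rest of their list.

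**Figure D5:**
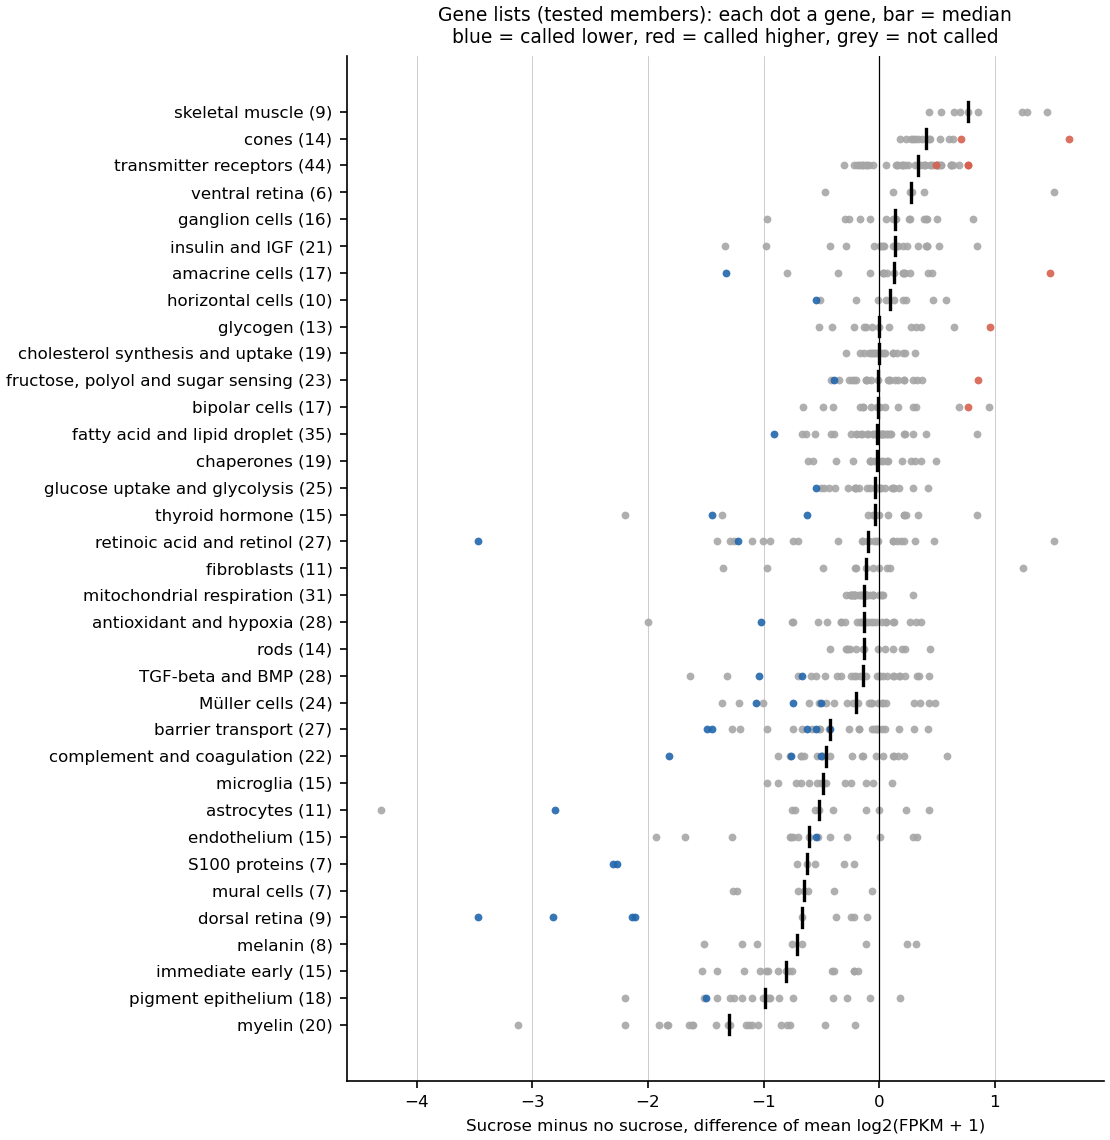
Each dot is a tested gene of a list, with its difference of mean log2(FPKM+1) between 4 sucrose and 4 other retinas on the x axis. Black bars are list medians, and blue and red dots are genes called lower and higher, for the lists with at least 6 tested members. Myelin has the lowest median without a called gene, dorsal retina has 4 called falls, and cones and transmitter receptors have 2 and 3 called rises.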

How the data were processed

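RNA of dissected retina was sequenced from 2 retinas on each of 4 diets. Per the labels, the authors' processing used FastQC and TopHat2. Their genome build and annotation are not given in the sources used here. Per the paper, only reads with a single position in the genome were kept. The authors deposited 1 table of FPKM values per gene, and every value above 0 was a whole number of fragments within a tolerance of 0.02, from which fragments and depths were recovered. The table holds FPKM and not counts, so the main test was not a count model. There were 0 value columns without a sample.

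Differences were tested with limma 3.58.1 (R 4.3.3) with a mean-variance trend on log2(FPKM+1), 4 against 4 retinas. The differences within each fat context and the interaction came from 1 model of 4 diets. Benjamini-Hochberg adjustment ran over 12204 genes, with calls under 0.05. Differences on this scale understate the change of low genes. The genes described are the 12 with a symbol and the largest called change each way, every called list member, a fixed set of markers, and for the interaction the 3 smallest p each way, while uncalled list members named with values were picked after their values were seen. The comparison, members and lists were chosen with earlier results of these data known. Some of these genes are not reported here. The code was tested on simulated data. Alternatives were pseudocounts of 0.1 and 0.5, no filter or a mean of 2 FPKM, other scalings, other model terms, no trend, limma-voom on recovered fragments, and leaving out each retina. Retinas of 1 diet differed by more than sampling noise (chi-square per degree of freedom 16.9 to 52.2).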

Additional observations from a re-analysis of the deposited data

Results flagged for a closer look

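In 8 of 128 sets of 4 retinas examined, 1 retina lay far from the other 3, as measured by its gap to the nearest of them over the range of the set, and chance alone picks out about 1 set in 20. With sucrose, HFSD replicate 2 stood apart in 4 genes. MBP reached 41.9 FPKM there against 4.02 to 4.34 FPKM (ratio 0.971), TBX5 reached 0.560 FPKM against 0.0175 to 0.0848 FPKM (ratio 0.85), and PDK4 reached 1.04 FPKM against 0.684 to 0.691 FPKM (ratio 0.978). SEPT4, listed as 04-Sep, stood at 84.6 FPKM against 109.5 to 114.4 FPKM (ratio 0.853). MBP and TBX5 were thereby nearer to the retinas without sucrose in HFSD replicate 2, whereas SEPT4 was farther from them.

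C1QTNF5 was higher in HSD replicate 2, at 12.8 FPKM against 5.63 to 6.49 FPKM (ratio 0.833). Without sucrose, ND replicate 1 was low for PDLIM3, at 5.38 FPKM against 12.1 to 13.7 FPKM (ratio 0.869), and high for SST, at 0.778 FPKM against 0.132 to 0.200 FPKM (ratio 0.869). In both genes it was the retina without sucrose that lay nearest to the sucrose retinas. ND replicate 2 was high for C11orf87, at 17.1 FPKM against 12.5 to 12.9 FPKM (ratio 0.9).

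The effect of sucrose with added fat minus that without it was -3.71 on the log2 scale in a protein-coding gene without a symbol, the single gene that passed the interaction test.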

How the results depend on the processing

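The 141 calls, 43 higher and 98 lower, became 72 (14 and 58) with a fat term, 42 (7 and 35) in the model of 4 diets, 43 (9 and 34) without a filter on low values, where 16404 genes were tested, and 85 (29 and 56) with FPKM rescaled to an equal sum per library. Leaving out 1 retina gave 15 to 397 calls, 1 to 204 higher and 14 to 193 lower. It gave 3 to 17 calls in HSD against ND, 1 to 7 in HFSD against HFD and 0 to 10 for the interaction, which was 0 with a pseudocount of 0.1. Of 45 called genes chosen by the naming rule, 8 were called in every one of 19 alternatives that tested them. Since their groups do not overlap, leaving out 1 retina cannot turn their direction. Of these 45, 25 lost the call in the model of 4 diets, 28 without a filter, 19 with a fat term, 15 with a replicate block and 13 with the equal sum. The cause of these moves was not tested.

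Correlations of replicate differences between diets ran from -0.165 to 0.0813, and whether retinas with the same replicate number shared a batch was not tested. With a replicate block 77 genes were called, 16 higher and 61 lower, with 3 in HFSD against HFD and 0 for the interaction.

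SORD, at 0.17, ran from -0.061 without ND replicate 1, a reversal, to 0.34 without HFSD replicate 2, and reversed to -0.0055 without HSD replicate 1. Rescaling FPKM to an equal sum per library moved the median difference over all genes from -0.0073 to 0.0699. With it the median difference of Müller glia moved to -0.12, amacrine to 0.21, horizontal to 0.17, barrier to -0.35, fructose and polyol to 0.068, insulin to 0.22, TGF-β to -0.078, fatty acid to 0.062 and antioxidant genes to -0.055. Without 1 retina, medians ran from -0.30 to -0.055 for Müller glia, 0.065 to 0.22 for amacrine, -0.43 to -0.28 for barrier, -0.48 to -0.30 for complement and -0.043 to 0.078 for chaperone genes. Of 37 list medians, 28 kept their sign in all alternatives run for them and 9 changed it. With 2 retinas a diet and 15764577 to 22785832 fragments, precision was limited by the spread between retinas.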

Other observations

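Of the 141 called genes, 107 were in none of the lists, and the following were picked out of them after their values were seen. They are single genes, and no list or theme was tested with them. EMP2, an epithelial membrane protein, had 4.68 and 4.55 FPKM on ND, 6.47 and 4.72 on HFD, 0.989 and 0.937 on HSD, and 0.721 and 1.08 on HFSD, and fell by 1.65 on the log2 scale (s.e. 0.13, adjusted p=0.00213). It was called in 19 of 19 alternatives. SEMA3B, a repulsive semaphorin, had 10.1 and 6.53 FPKM on ND, 7.77 and 7.52 on HFD, 1.92 and 2.76 on HSD, and 1.02 and 2.39 on HFSD, and fell by 1.59 on the log2 scale (s.e. 0.20, adjusted p=0.0134). It was called in 17 of 19 alternatives. SFRP2, a secreted Wnt antagonist, had 620.3 and 688 FPKM on ND, 779 and 689 on HFD, 325 and 181 on HSD, and 207 and 386 on HFSD, and fell by 1.4 on the log2 scale (s.e. 0.22, adjusted p=0.0309). It was called in 12 of 19 alternatives.

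TIMP3, an inhibitor of matrix metalloproteinases that pigment epithelium deposits in Bruch's membrane, had 18.1 and 10.4 FPKM on ND, 9.62 and 6.02 on HFD, 1.84 and 3.59 on HSD, and 2.16 and 2.46 on HFSD. All sucrose retinas lay below both HFD retinas as well as both ND retinas, and TIMP3 fell by 1.71 on the log2 scale (s.e. 0.28, adjusted p=0.0322), with calls in 13 of 19 alternatives. HEPACAM, an adhesion protein of glia, spanned 25.9 to 42.9 FPKM without and 8.62 to 17.1 with sucrose (log2 difference -1.22, s.e. 0.22, adjusted p=0.0384). ANXA5, the phosphatidylserine-binding annexin A5, spanned 15.1 to 21.6 FPKM without and 6.69 to 9.85 with sucrose (log2 difference -1.09, s.e. 0.16, adjusted p=0.0217). NPC2, a lysosomal carrier of cholesterol, spanned 59 to 97.1 FPKM without and 38.4 to 42.2 with sucrose (log2 difference -0.95, s.e. 0.15, adjusted p=0.0283). CIDEA, a protein of lipid droplets, spanned 3.19 to 5.72 FPKM without and 0.591 to 1.32 with sucrose (log2 difference -1.28, s.e. 0.19, adjusted p=0.0246). HEPACAM, ANXA5, NPC2 and CIDEA were called in 9, 15, 10 and 13 of 19 alternatives, respectively.

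Others of these genes rose. PRDM13, a transcription factor of amacrine cells, had 10.6 and 10.5 FPKM on ND, 10.7 and 11.4 on HFD, 16.9 and 15.9 on HSD, and 18.4 and 18 on HFSD. The spread within either group was small, and PRDM13 rose by 0.63 on the log2 scale (s.e. 0.07, adjusted p=0.00948), with calls in 18 of 19 alternatives. SALL3, a transcription factor of cones and horizontal cells, spanned 1.58 to 1.87 FPKM without and 2.71 to 3.36 with sucrose (log2 difference 0.59, s.e. 0.11, adjusted p=0.0358). SHISA6, an auxiliary protein of AMPA receptors, had 3.32 and 2.82 FPKM on ND, 3.13 and 2.9 on HFD, 6.03 and 5.41 on HSD, and 5.33 and 5.72 on HFSD, and rose by 0.71 on the log2 scale (s.e. 0.09, adjusted p=0.0136), with calls in 15 of 19 alternatives. FKBP5, a glucocorticoid-induced co-chaperone, had 21.7 and 30.00 FPKM on ND, 24.6 and 24.1 on HFD, 34.7 and 36.6 on HSD, and 37.9 and 37.5 on HFSD, and rose by 0.54 on the log2 scale (s.e. 0.10, adjusted p=0.0358). CAMK2A, a calcium-dependent kinase of synapses, spanned 5.63 to 8.41 FPKM without and 9.39 to 11.7 with sucrose (log2 difference 0.68, s.e. 0.13, adjusted p=0.0427), and CACNA1G, a T-type calcium channel, spanned 8.48 to 12.5 FPKM without and 15.5 to 18.5 with sucrose (log2 difference 0.65, s.e. 0.12, adjusted p=0.0359). SALL3, FKBP5, CAMK2A and CACNA1G were called in 7, 9, 7 and 8 of 19 alternatives, respectively.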
